A study of Saccharomyces cerevisiae with 36 samples.

Results

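The aromatic amino acid synthesis genes of Saccharomyces cerevisiae were followed in all 18 groups of a starvation experiment. The 10 genes, ARO1, ARO2, ARO3, ARO4, ARO7, ARO8, TRP2, TRP3, TRP4 and TRP5, encode the shikimate pathway, chorismate mutase, an aromatic aminotransferase and the tryptophan branch. They were chosen by name, with earlier results of these data known, and each had 1 probe set of its own among the 5338 genes tested. On the 36 arrays their levels lay between 10.33 and 14.03 (log2 RMA signal), on arrays whose medians over all genes ran from 10.66 to 10.75.

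The experiment used haploid MATalpha cells of strain BY4742, a laboratory strain with deletions at HIS3, LEU2, LYS2 and URA3, either carrying a deletion of MSN5 (msn5), carrying a deletion of MTR10 (mtr10), or with both genes intact (wild-type). MSN5 and MTR10 encode carriers that move cargo through nuclear pores. Each strain was held for 30 min in medium without amino acids (starved) or with them (fed), at 30 °C. Cycloheximide was then added, a drug that stops ribosomes where they stand on a message. Polysome RNA, which carries several ribosomes per message, non-polysome RNA and total RNA were taken from each, giving 2 arrays a group. The labels call these biological replicates but do not say whether they came from separate cultures, so p-values measure the spread between these arrays, and their number limits the precision of every value.

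Phenylalanine, tyrosine and tryptophan share a route from sugar phosphates to chorismate, after which the tryptophan branch parts from the one to phenylalanine and tyrosine. In yeast the first step is made by a pair of enzymes, one inhibited by phenylalanine and one by tyrosine. Many amino acid synthesis genes in yeast, several of these among them, are targets of the activator Gcn4, whose translation rises when uncharged tRNA accumulates.

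Levels below are log2 RMA signals, a scale on which a step of 1 doubles the signal. Levels of different probe sets cannot be set against each other, and neither can absolute amounts between kinds of RNA, since RMA gives every array the same distribution. Each change is a difference of log2 levels, given ± its standard error (SE) from a limma model of all genes. A gene was called where its Benjamini-Hochberg adjusted p over the 5338 genes was under 0.05, and rose and fell are used of called genes only.

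In msn5 and mtr10, the arrays of fed non-polysome RNA went partly against their labels. MSN5 read 6.85 and 7.23 on those arrays in msn5, against 3.64 to 4.75 on the other 10 msn5 arrays, with 10.94 to 12.57 in the other strains. MTR10 read 5.17 and 5.48 on those arrays in mtr10, against 3.64 to 4.67 on the other 10 mtr10 arrays, with 9.99 to 11.09 in the other strains. These 4 arrays enter no comparison between groups below, share in the estimate of the spread, and appear in the order of levels and the profiles. The 4 measured genes specific to MATalpha cells had a summed signal of 14.72 to 14.80 in starved against 15.03 to 15.12 in fed wild-type, 13.30 to 13.48 in starved against 14.21 to 14.31 in fed msn5, and 14.54 to 14.72 in starved against 15.12 to 15.22 in fed mtr10. MATalpha cells normally keep the 7 genes specific to MATa cells silent, but the summed signal of these was 14.82 to 15.15 in starved against 10.46 to 11.40 in fed wild-type, 13.65 to 14.02 in starved against 10.53 to 12.16 in fed msn5, and 13.32 to 14.51 in starved against 12.92 to 14.02 in fed mtr10. The lowest of the 7 on any array read 10.65 in starved wild-type and 6.21 in fed wild-type. Of the 4 MATalpha-specific genes the lowest read 7.14 in starved msn5 (MF(ALPHA)2), 11.20 in fed msn5 and 11.64 in starved wild-type. The sums thus hide differences between single mating-type genes. Their part in the results below was not tested.

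Starvation raised most of the genes in wild-type total RNA. Of the 10, 7 rose, 1 fell and 2 were not called, with a median change of 0.54, against -0.03 over all genes. Calls were common in this comparison, at 31.4% of all genes upward and 32.8% downward. In bulk RNA, a change in every cell and a change in some of the cells cannot be told apart. Starved and fed arrays did not overlap for any of the 10, the 2 uncalled ones included. The share of all genes without overlap was not counted, so no weight is put on this. The MATa-specific genes moved with starvation in the same total RNA, 7 of 7 upward with a median of 4.20.

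The first committed step is made by DAHP synthase. ARO3 (YDR035W), the phenylalanine-inhibited form, measured 13.73 and 13.77 in starved wild-type total RNA, against 12.80 and 12.59 in fed. It rose by 1.05 ± 0.08 (2.08-fold, adjusted p = 2.28e-10). ARO4 (YBR249C), the tyrosine-inhibited form, measured 13.23 and 13.38 in starved cells and 13.08 and 13.12 in fed cells. All starved arrays were above the fed ones, but the difference of 0.21 ± 0.11 was not called (adjusted p = 0.0915).

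ARO1 (YDR127W) encodes a single protein with several activities that carries out the middle steps to chorismate. Its level was 13.59 and 13.64 in starved wild-type cells and 12.65 and 12.71 in fed cells, a rise of 0.93 ± 0.10 (1.91-fold). Chorismate synthase, ARO2 (YGL148W), which makes chorismate itself, measured 12.74 and 12.87 in starved cells, against 12.71 and 12.74 in fed cells. The closest starved and fed arrays were level at 2 decimals, and the difference of 0.08 ± 0.12 was within the error of the fit (adjusted p = 0.578, limma).

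At the branch point the direction turned. ARO7 (YPR060C), chorismate mutase, which commits chorismate to phenylalanine and tyrosine, measured 10.81 and 10.83 in starved wild-type total RNA and 11.25 and 11.03 in fed. It fell by 0.32 on the log2 scale (standard error 0.08, adjusted p = 0.00117), the only one of the 10 to do so. Without fed replicate 1 the difference was -0.21 and no longer called (adjusted p = 0.0527). ARO8 (YGL202W), the aminotransferase that finishes phenylalanine and tyrosine, measured 13.48 and 13.52 in starved and 12.98 and 13.04 in fed cells. That was a rise of 0.49 ± 0.10. In the second deposited matrix (MAS5 signals, without 2 columns that match the other condition) it was -0.08 and not called.

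The tryptophan branch held both of the largest rises among the 10. TRP4 (YDR354W), anthranilate phosphoribosyltransferase, measured 12.69 and 12.76 in starved cells, against 11.10 and 11.12 in fed cells. It rose by 1.62 ± 0.11 (3.07-fold, adjusted p = 8.42e-11) and ranked 209 of 5338 genes from the largest rise. TRP3 (YKL211C), which joins indole-glycerol-phosphate synthase to the glutamine-using subunit of anthranilate synthase, measured 12.87 and 12.79 in starved cells and 11.45 and 11.31 in fed cells. Its rise was 1.45 ± 0.13 (2.72-fold, rank 268).

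The genes for the other subunit of the first enzyme and for the last enzyme of the branch moved less. TRP2 (YER090W), the other anthranilate synthase subunit, measured 12.64 and 13.02 in starved cells, against 12.31 and 12.18 in fed cells. It rose by 0.58 ± 0.11. TRP5 (YGL026C), tryptophan synthase, measured 13.41 and 13.50 in starved cells and 12.95 and 13.01 in fed cells, a rise of 0.48 ± 0.07 (adjusted p = 7.64e-06).

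**Figure D1:**
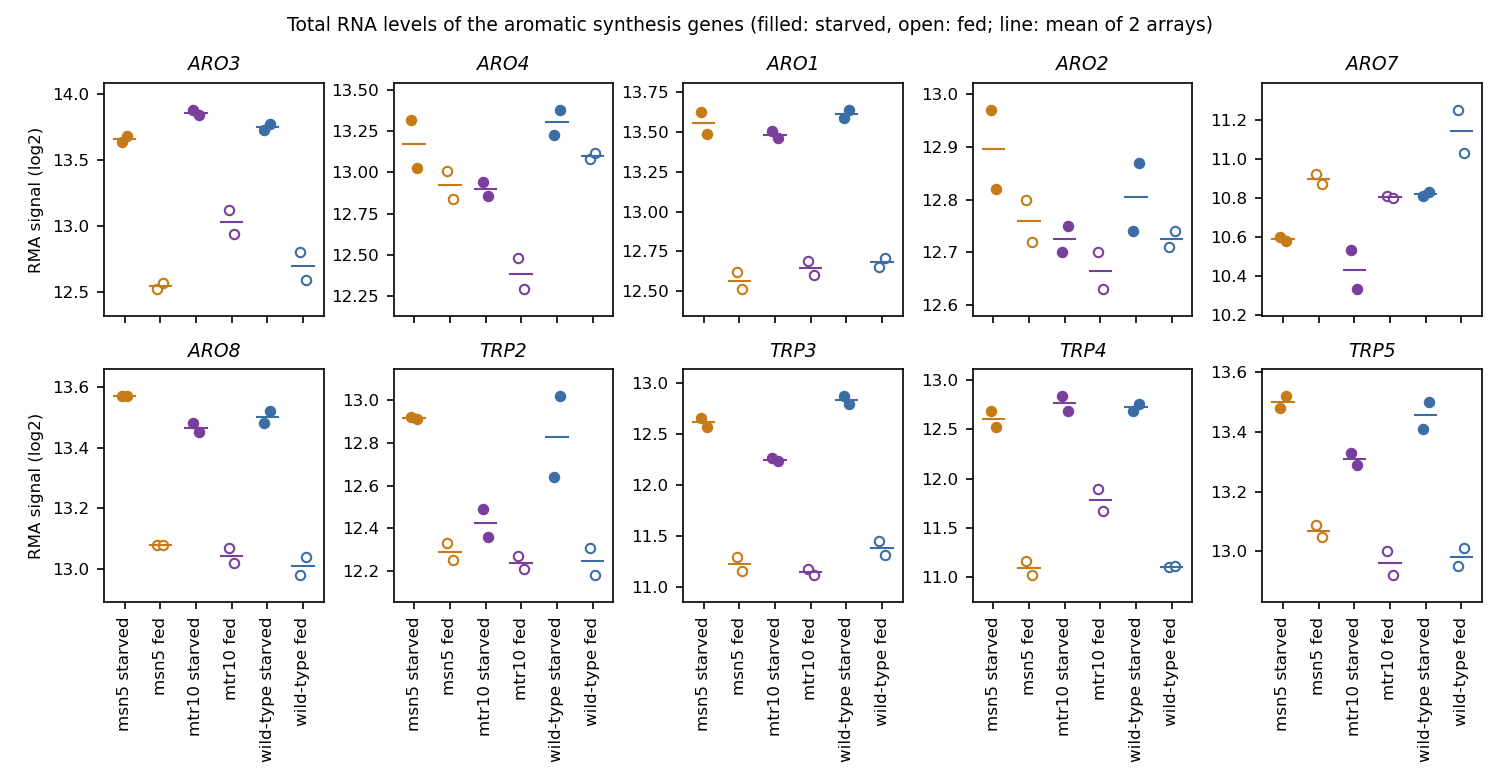
Log2 RMA signal of each gene in total RNA, starved (filled) and fed (open) for msn5, mtr10 and wild-type, with 1 point per array, a line at the mean of 2 arrays and a separate vertical scale per gene. Starved points lie above fed ones of the same strain in 8 panels, nearly touch them for ARO2 and lie below them for ARO7, and the fed mtr10 points of TRP4 (11.90 and 11.67) lie above the fed wild-type ones (11.10 and 11.12).

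The msn5 strain gave nearly the same values. In its total RNA 8 of the 10 rose and 1 fell, against 28.8% of all genes upward and 32.2% downward, and the median was 0.56. TRP4 rose by 1.52 ± 0.11, TRP3 by 1.39 ± 0.13, ARO3 by 1.11 ± 0.08 and ARO1 by 0.99 ± 0.10. TRP4 measured 12.69 and 12.53 in starved msn5 cells, against 11.17 and 11.02 in fed msn5 cells. ARO7 fell by 0.30 on the log2 scale, at 10.60 and 10.58 in starved against 10.92 and 10.87 in fed cells. ARO4 was called here (0.25 ± 0.11, adjusted p = 0.0458), but not without fed replicate 2 (0.17, adjusted p = 0.288) or starved replicate 1 (0.11, adjusted p = 0.476). In MAS5 signals ARO4 (-0.13) and TRP5 (-0.05) were negative and 5 of the 10 were called, against 9 of the 10 in quantile-normalized MAS5 signals, which are made to share one distribution.

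Whether the response differed between strains was tested directly as the difference of the changes. For msn5 minus wild-type 0 of 10 genes were called by limma, and 0 at an unadjusted p under 0.05, against 0.150% of all genes upward and 0.543% downward. MAS5 signals gave 0 as well. The differences ran from -0.10 ± 0.16 (TRP4) to 0.06 ± 0.14 (ARO1). The 95% interval for TRP4 ran from -0.43 to 0.23, which does not show that both strains responded alike.

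In mtr10 the response was smaller for TRP4. Total RNA of this strain had 7 genes that rose and 1 that fell, against 24.8% of all genes upward and 23.9% downward, and the median was 0.47. TRP4 measured 12.84 and 12.69 in starved mtr10 cells and 11.90 and 11.67 in fed mtr10 cells, a rise of 0.98 ± 0.11. The difference of the changes, mtr10 minus wild-type, was -0.64 ± 0.16 (limma adjusted p = 0.00953). TRP4 was the 1 gene of 10 called, a count near the shares of all genes, 7.89% downward and 6.41% upward. It missed the threshold without mtr10 fed replicate 1 (-0.52, adjusted p = 0.0622) and without mtr10 starved replicate 2 (-0.57, adjusted p = 0.0578).

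The other genes of the tryptophan branch had differences of the same sign that were not called, -0.40 ± 0.15 for TRP2 (adjusted p = 0.0891), -0.34 ± 0.18 for TRP3 and -0.13 ± 0.10 for TRP5. TRP2 was called without wild-type starved replicate 1 (-0.59, adjusted p = 0.0151). Its level was 12.49 and 12.36 in starved mtr10 cells and 12.27 and 12.21 in fed mtr10 cells, a difference of 0.19 ± 0.11 that was not called (adjusted p = 0.168). ARO4 had the opposite sign, 0.31 ± 0.15, also not called. The MATa-specific genes moved less with starvation in mtr10 too, 4 of 7 upward with a median of 0.76, and the part of this in the TRP4 difference was not tested.

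**Figure D2:**
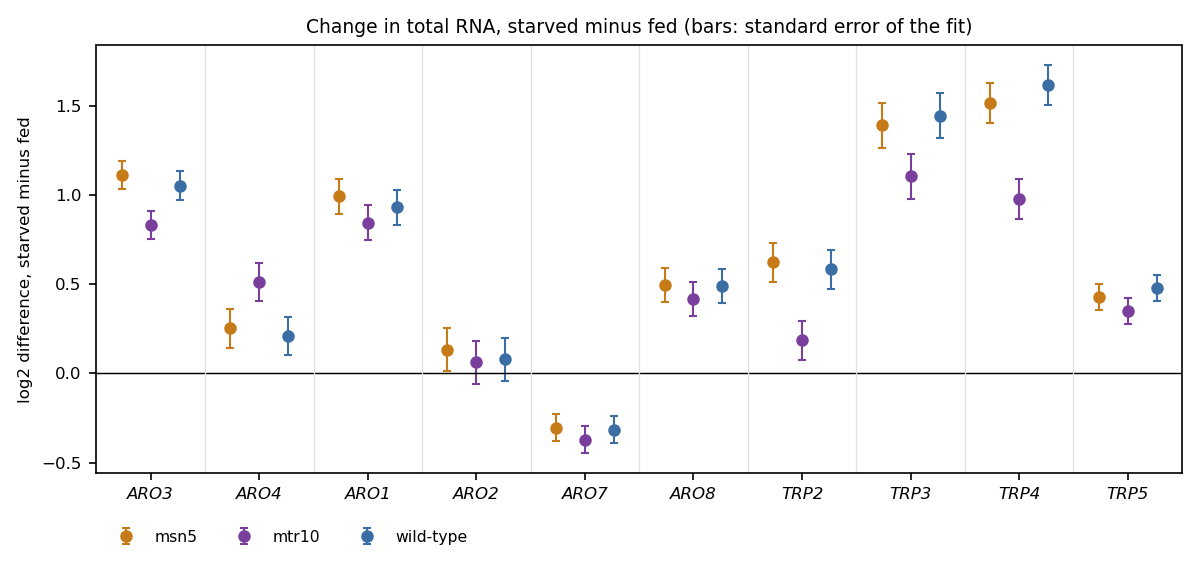
Log2 difference of starved minus fed total RNA for each gene (vertical axis) in msn5, mtr10 and wild-type, with bars of 1 standard error of the fit. TRP4 is 0.98 in mtr10, against 1.62 in wild-type, and ARO7 is below 0 in all 3 strains.

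The mtr10 strain was then set against wild-type at each condition. In fed total RNA 2 genes were higher and 2 lower, counts near the shares of all genes, 18.8% and 20.7%. TRP4 was higher by 0.68 ± 0.11, at 11.90 and 11.67 in mtr10 against 11.10 and 11.12 in wild-type (adjusted p = 6.12e-05). ARO4 was lower, at 12.48 and 12.29 in mtr10 and 13.08 and 13.12 in wild-type, a difference of -0.72 ± 0.11 (adjusted p = 1.67e-05). Its partner in the first step, ARO3, went the other way, with 13.12 and 12.94 in mtr10 and 12.80 and 12.59 in wild-type (0.33 ± 0.08). ARO3 was not called without wild-type replicate 2 (0.23, adjusted p = 0.0653) or mtr10 replicate 1 (0.24, adjusted p = 0.0565). ARO7 was lower by -0.33 ± 0.08, and not called without wild-type replicate 1 (-0.22, adjusted p = 0.0679).

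Fed polysome RNA gave the same picture for ARO4 and TRP4. There 3 genes were higher and 1 lower in mtr10, again counts near the shares of all genes, 19.4% and 20.2%. ARO4 measured 12.43 and 12.27 in mtr10 and 13.12 and 13.08 in wild-type (-0.75 ± 0.11). TRP4 measured 11.91 and 11.71 in mtr10 and 11.08 and 11.12 in wild-type (0.71 ± 0.11). ARO3 was higher by 0.40 ± 0.08, and so was ARO1 by 0.43 ± 0.10, at 12.78 and 12.62 in mtr10 and 12.24 and 12.30 in wild-type.

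After starvation no gene of the 10 was called higher in mtr10. In total RNA 4 were lower, against 25.7% of all genes higher and 28.5% lower. TRP3 measured 12.26 and 12.23 in mtr10 and 12.87 and 12.79 in wild-type (-0.58 ± 0.13, adjusted p = 0.00053). ARO4 differed by -0.41 ± 0.11 and ARO7 by -0.39 ± 0.08. TRP2 differed by -0.40 ± 0.11, but by -0.21 (adjusted p = 0.141) without wild-type replicate 2 and -0.33 (adjusted p = 0.0507) without mtr10 replicate 2. TRP4, at 12.84 and 12.69 in mtr10 and 12.69 and 12.76 in wild-type, had overlapping arrays (0.04 ± 0.11, adjusted p = 0.774).

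In starved polysome RNA 3 genes were lower in mtr10, against 25.5% of all genes higher and 27.2% lower, so the count of lower genes is near its share. ARO4 measured 12.65 and 12.52 in mtr10 and 13.21 and 13.15 in wild-type (-0.60 ± 0.11). TRP3 (-0.36 ± 0.13) and TRP2 (-0.31 ± 0.11) missed the threshold without replicate 2 of either strain, at -0.28 and -0.29 for TRP3 and at -0.24 both times for TRP2. ARO4 was thus lower in mtr10 in each of the 4 comparisons with wild-type. Polysome and total RNA may come from the same cultures, so these are not 4 independent comparisons. The MATa-specific genes also differed between these strains, 7 of 7 higher in fed mtr10 total RNA (median 1.60) and 5 of 7 lower in starved mtr10 total RNA (median -0.82). Their part in these differences was not tested.

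**Figure D3:**
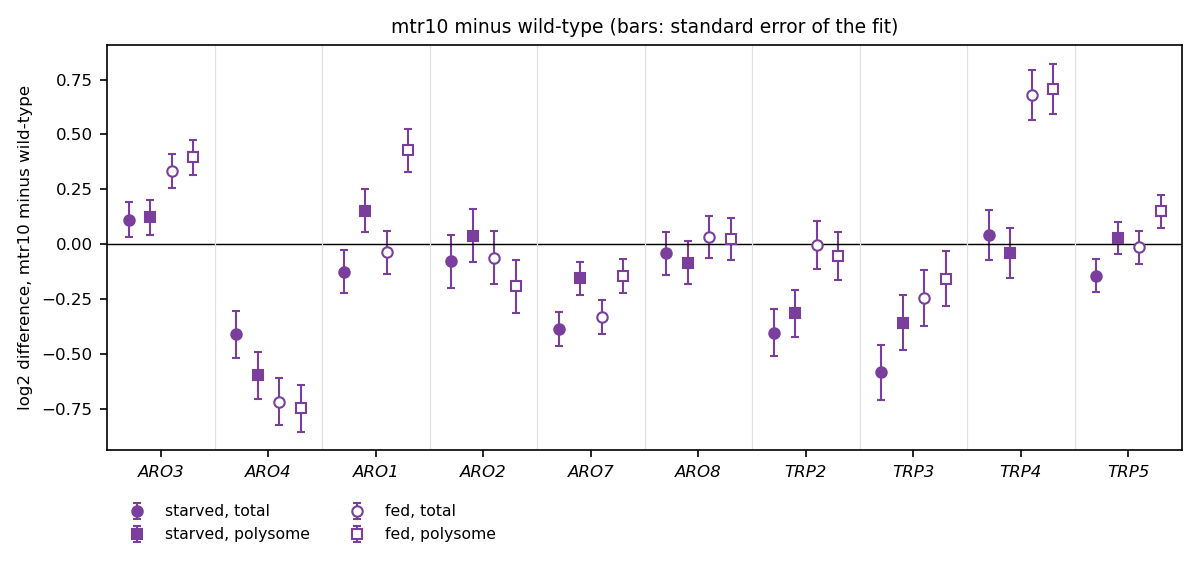
Log2 difference of mtr10 minus wild-type for each gene (vertical axis) in starved (filled) and fed (open) total RNA (circles) and polysome RNA (squares), with bars of 1 standard error. ARO4 lies between -0.75 and -0.41 throughout, while TRP4 is near 0.7 in fed RNA and near 0 in starved RNA.

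Against wild-type, msn5 differed at 1 gene in total RNA. ARO7 was lower in fed msn5, at 10.92 and 10.87 against 11.25 and 11.03 in wild-type (-0.24 ± 0.08, adjusted p = 0.0442), where 6.58% of all genes were higher and 5.36% lower. In starved cells it was lower again, at 10.60 and 10.58 in msn5 and 10.81 and 10.83 in wild-type (-0.23 ± 0.08, limma adjusted p = 0.038). There 9.25% of all genes were higher and 10.9% lower. A count of 1 in 10 is near these shares in both conditions. Leaving out single arrays ended the fed call in 3 of 4 cases (-0.27 to -0.13) and the starved call in 4 of 4 (-0.24 to -0.22). Of the mating-type genes, 3 of 4 specific to MATalpha cells were lower in fed msn5, and in starved msn5 all 4 of these and 6 of 7 specific to MATa cells were lower, and their part in the ARO7 difference was not tested. In polysome RNA 0 of 10 were called by limma in fed cells (5.47% of all genes were higher and 3.69% lower) and 0 in starved cells (6.41% higher and 10.4% lower), with 0 at an unadjusted p under 0.05 in both. The polysome differences ran from -0.13 to 0.12 in fed and from -0.18 to 0.18 in starved cells.

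Starvation was next followed in the polysome pool, the messages being translated. In wild-type polysomes 7 genes rose and 2 fell, against 36.1% of all genes upward and 33.2% downward. TRP4 measured 12.69 and 12.92 in starved polysomes and 11.08 and 11.12 in fed polysomes, a rise of 1.70 ± 0.11. ARO1 rose by 1.37 ± 0.10, at 13.63 and 13.65 in starved against 12.24 and 12.30 in fed polysomes. TRP3 rose by 1.17 ± 0.13 and ARO3 by 1.02 ± 0.08. TRP2 (0.59 ± 0.11), ARO8 (0.54 ± 0.10) and TRP5 (0.54 ± 0.07) rose less, and in MAS5 signals these 3 were negative, at -0.20, -0.41 and -0.26. With quantile-normalized MAS5 signals, which share one distribution as RMA signals do, none of these 3 was negative.

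ARO7 and ARO2 fell in wild-type polysomes. ARO7 fell by 0.24 on the log2 scale, with 11.05 and 11.02 in starved and 11.31 and 11.24 in fed polysomes, and was -0.20 without fed replicate 1 (adjusted p = 0.0736). ARO2, at 12.58 and 12.85 in starved and 13.04 and 12.96 in fed polysomes, fell by 0.29 on the log2 scale (adjusted p = 0.0398). That call ended without either fed array or without starved replicate 1 (-0.33 to -0.15). ARO4 was not called (0.08 ± 0.11).

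Both mutants had 7 genes that rose in polysomes and 1, ARO7, that fell, against 34.2% of all genes upward and 32.6% downward in msn5, and 32.7% and 27.2% in mtr10. TRP4 rose by 1.40 ± 0.11 in msn5 and by 0.95 ± 0.11 in mtr10, and ARO1 by 1.40 ± 0.10 and 1.10 ± 0.10. In mtr10, MAS5 signals turned ARO3 (-0.06), ARO8, TRP2 and TRP5 negative, and in msn5 ARO8 and TRP5. Without single arrays the call of ARO7 ended in msn5 (-0.23 without fed replicate 2) and in mtr10 (-0.20 without starved replicate 2). That of TRP2 ended in mtr10 without fed replicate 2 (0.28) or starved replicate 1 (0.25).

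Non-polysome RNA was compared on starvation in wild-type alone. There 9 genes rose and 0 fell, against 31.1% of all genes upward and 36% downward. TRP4 measured 12.77 and 12.92 in starved and 10.68 and 10.80 in fed cells, a rise of 2.11 ± 0.11 (4.32-fold). TRP3 rose by 1.89 ± 0.13, ARO3 by 1.42 ± 0.08, ARO8 by 1.20 ± 0.10, ARO1 by 1.03 ± 0.10, TRP2 by 1.00 ± 0.11 and TRP5 by 0.73 ± 0.07. ARO2 (0.69 ± 0.12) and ARO4 (0.58 ± 0.11), which were not called in total RNA, rose here. ARO7 measured 11.48 and 11.40 in starved and 11.47 and 11.40 in fed cells, and did not pass the test (0.00 ± 0.08).

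**Figure D4:**
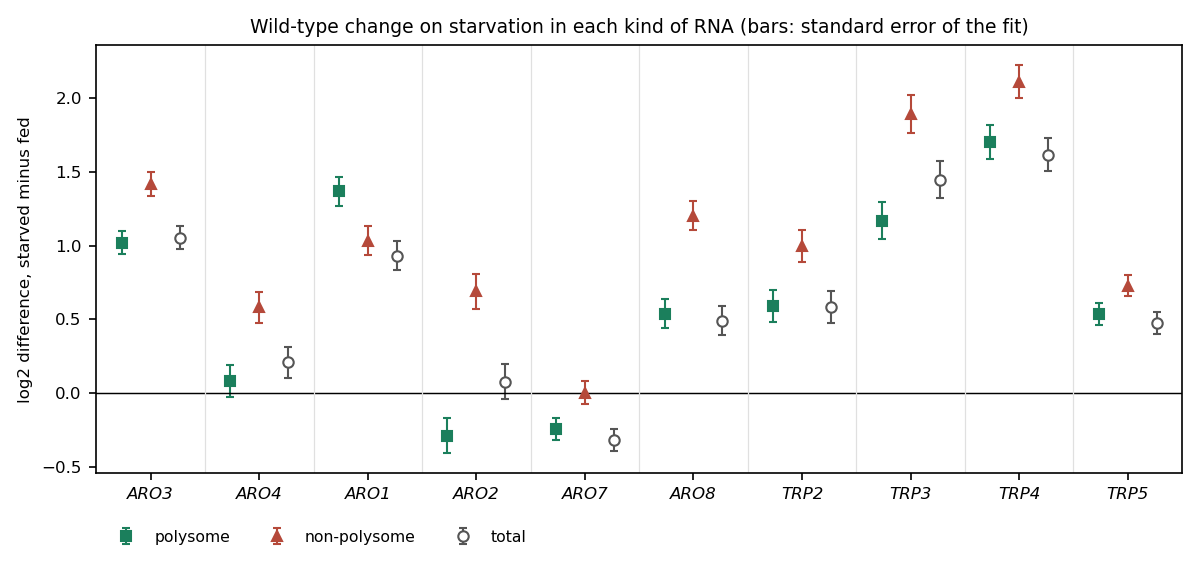
Log2 difference of starved minus fed wild-type cells for each gene (vertical axis) in polysome RNA (squares), non-polysome RNA (triangles) and total RNA (open circles), with bars of 1 standard error. Non-polysome points are above polysome points for every gene but ARO1, where the values are 1.37 in polysome and 1.03 in non-polysome RNA.

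The ratio of polysome to non-polysome signal describes how a message is spread over both pools, relative to the other messages. In fed wild-type cells 7 genes had more signal in polysomes and 0 less, against 26.5% of all genes with more and 24.5% with less. The log2 ratio was 0.95 ± 0.10 for ARO8, 0.88 ± 0.11 for TRP2, 0.74 ± 0.08 for ARO3, 0.56 ± 0.12 for ARO2 and 0.44 ± 0.07 for TRP5. TRP4 (0.36 ± 0.11) and TRP3 (0.31 ± 0.13) lost their call without some single arrays. ARO4, ARO1 and ARO7 were not called.

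In starved wild-type cells the genes split, with 5 higher and 4 lower in polysomes, against 34.1% and 29% of all genes. Higher were ARO1 (0.50 ± 0.10), TRP2 (0.47 ± 0.11), ARO3 (0.34 ± 0.08), ARO8 (0.29 ± 0.10) and TRP5 (0.25 ± 0.07), and lower were ARO2 (-0.42 ± 0.12), TRP3 (-0.41 ± 0.13), ARO7 (-0.41 ± 0.08) and ARO4 (-0.30 ± 0.11). TRP4 had a ratio of -0.05 ± 0.11, with overlapping arrays. In MAS5 signals ARO3, ARO8 and TRP5 were lower in polysomes instead, at -0.43, -0.30 and -0.23. Quantile-normalized MAS5 signals called 5 of the 10, with ARO4 at 0.02. Leaving out single arrays left 7 or 8 calls. Calls ended for ARO2 (-0.29) and TRP3 (-0.34) without polysome replicate 1, for ARO4 without either replicate 2 (-0.26 and -0.20), for ARO8 without polysome replicate 2 (0.26) or non-polysome replicate 1 (0.22), and for TRP5 without the same non-polysome array (0.20).

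The change of this ratio on starvation was tested as a difference of differences. In wild-type 7 of 10 ratios fell and 0 rose, against 16.4% of all genes downward and 23.3% upward. ARO2 changed most. In starved cells it measured 12.58 and 12.85 in polysomes and 13.10 and 13.17 in non-polysome RNA, and in fed cells 13.04 and 12.96 in polysomes and 12.26 and 12.63 in non-polysome RNA. Its ratio fell by 0.98 on the log2 scale (standard error 0.17, adjusted p = 0.000204). The ratio also fell for TRP3 (-0.72 ± 0.18), ARO8 (-0.66 ± 0.14), ARO4 (-0.50 ± 0.15), TRP2 (-0.41 ± 0.15), TRP4 (-0.41 ± 0.16) and ARO3 (-0.40 ± 0.11). Only for ARO1 was the change positive, 0.34 ± 0.14, and it was not called (adjusted p = 0.0581).

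Several of these calls rest on single arrays. TRP2 and TRP4 were not called without most of the single arrays, at -0.45 to -0.26 for TRP2 and -0.47 to -0.29 for TRP4 where the call ended. ARO4 was -0.40 (adjusted p = 0.0629) without starved non-polysome replicate 2, and ARO3 was -0.32 (adjusted p = 0.0508) without fed polysome replicate 1.

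**Figure D5:**
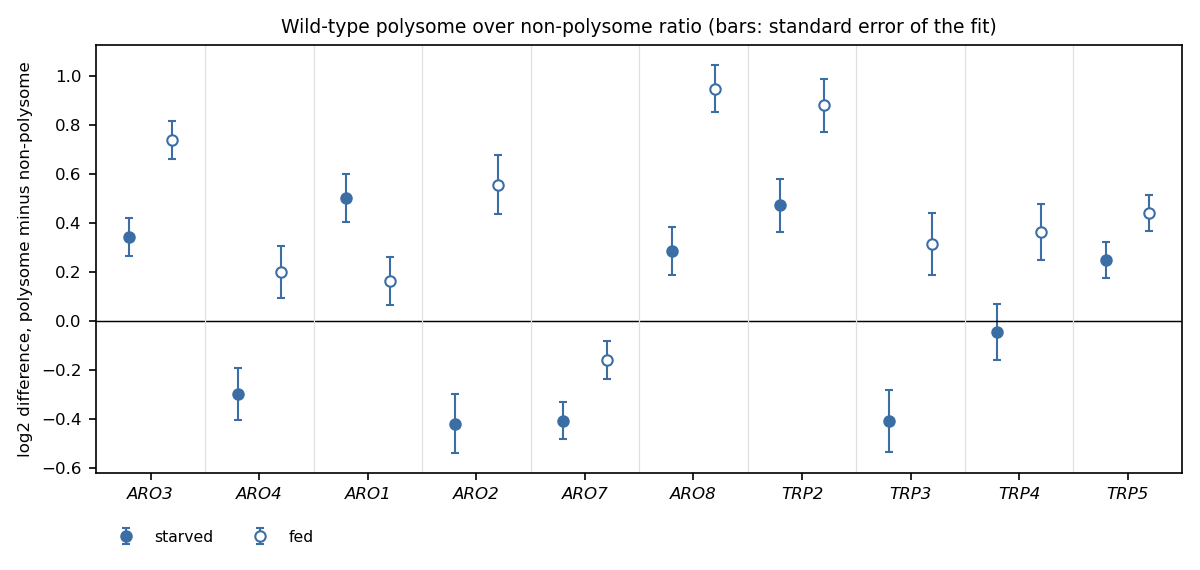
Log2 difference of polysome minus non-polysome RNA for each gene (vertical axis) in starved (filled) and fed (open) wild-type cells, with bars of 1 standard error. The starved point is below the fed one for every gene but ARO1, and for ARO2 the values are -0.42 in starved and 0.56 in fed cells.

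The ratio was then read in the starved mutants, without a test of its difference between strains. In msn5 5 genes were higher and 2 lower in polysomes (36% and 31.6% of all genes), and in mtr10 5 were higher and 1 lower (35.5% and 32.9% of all genes). The same 5 genes, ARO1, ARO3, ARO8, TRP2 and TRP5, were higher in each. The lower genes were ARO7 (-0.39 ± 0.08) and TRP3 (-0.46 ± 0.13) in msn5 and ARO4 (-0.46 ± 0.11) in mtr10. ARO7 had a ratio of 0.06 ± 0.08 in mtr10, which was not called, against -0.41 ± 0.08 in wild-type. On starved mtr10 arrays ARO7 measured 10.93 and 10.83 in polysomes and 10.82 and 10.83 in non-polysome RNA. TRP2 had a ratio of 1.00 ± 0.11 in mtr10 and 0.60 ± 0.11 in msn5, against 0.47 ± 0.11 in wild-type. On starved mtr10 arrays it measured 12.71 and 12.56 in polysomes and 11.68 and 11.59 in non-polysome RNA. MAS5 signals turned ARO3 and TRP5 negative in both mutants, and ARO8 in msn5. Without 1 starved non-polysome array the calls of TRP3 in msn5 (-0.31, replicate 2) and ARO3 in mtr10 (0.19, replicate 1) ended.

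Over all 18 groups the genes differed in how far their levels ranged. Group means spanned 2.18 for TRP4, 2.10 for TRP3, 1.88 for ARO3 and 1.69 for ARO1, and 1.01 for ARO7. For TRP4, TRP3, ARO3 and ARO1 the 18 starved arrays all lay above the 18 fed arrays, and for the other 6 genes the arrays overlapped. Outside the 10, PHA2 of the same pathway was separated as well, and TYR1 and ARO9 overlapped. The share of all genes separated in this way was not counted, so no weight is put on the separation. The 18 arrays of a condition pool strains and kinds of RNA and are not replicates of each other. TRP4 ran from 12.53 to 12.92 over starved arrays (median 12.73) and from 10.68 to 12.08 over fed arrays (median 11.14).

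The order of the TRP4 levels put all 9 starved groups first, between 12.91 and 12.61, and neighbours in that stretch overlapped. The 3 fed mtr10 groups followed at 11.93 (non-polysome), 11.81 (polysome) and 11.79 (total), overlapping each other and not the next group. Fed msn5 polysome RNA (11.22) led the remaining fed groups, and fed wild-type non-polysome RNA (10.74) was last. For ARO4 the lowest 4 groups were all of mtr10, starved polysome RNA at 12.58 and fed total, polysome and non-polysome RNA at 12.38, 12.35 and 12.19. The highest ARO4 mean was 13.48 in starved wild-type non-polysome RNA. ARO7 was highest in wild-type non-polysome RNA, at 11.44 both starved and fed, and lowest in starved total RNA of mtr10 (10.43) and msn5 (10.59).

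Profiles over the 18 group means were compared as a description, since the groups share strains and treatments. Of 45 pairs of the 10 genes, 6 had a Pearson r over 0.9 and 7 had r under 0, all 7 with ARO7, and the median was 0.64. ARO8 and TRP5 were most alike (0.97), followed by ARO3 and TRP4 (0.95). The 2 DAHP synthase genes, ARO3 and ARO4, had r = 0.24. Outside the list the 5 genes with the profile most like the mean of the 10 were YHI9 and ERG8 (r = 0.980 each), HIS1 (0.972), SER1 (0.971) and LAP3 (0.966). Over the 36 arrays the same 5 came first, with r from 0.959 to 0.973. Without the 2 fed non-polysome groups of the mutants LAP3 ranked 14 and the other 4 stayed among the first 5, while 5 pairs of the 10 genes had r over 0.9 and the median was 0.52. ERG8 encodes a mevalonate pathway kinase, HIS1 the first enzyme of histidine synthesis and SER1 a serine synthesis aminotransferase.

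Other genes of aromatic synthesis were read from a list. All 3 measured ones rose in wild-type total RNA. TYR1, prephenate dehydrogenase, measured 11.93 and 12.13 in starved and 11.42 and 11.51 in fed cells (0.57 ± 0.09), and PHA2, prephenate dehydratase, 10.79 on both starved arrays and 9.93 and 9.83 in fed cells (0.91 ± 0.12). ARO9, the second aromatic aminotransferase, which also starts breakdown, measured 9.47 and 10.02 in starved and 7.85 and 8.29 in fed cells (1.67 ± 0.30). In msn5 these 3 rose too, by 0.55, 0.62 and 1.33. In mtr10 TYR1 rose by 0.31 ± 0.09, while PHA2 (0.24 ± 0.12) and ARO9 (-0.56 ± 0.30) were not called. The mtr10 minus wild-type difference of the changes was called for PHA2 (-0.67 ± 0.18, adjusted p = 0.0129) and ARO9 (-2.23 ± 0.42, adjusted p = 0.00103).

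Of 7 genes listed for aromatic breakdown, 4 were higher in fed mtr10 than in fed wild-type total RNA, 0 were lower and 3 were not called, against 18.8% of all genes higher and 20.7% lower. ARO9 measured 10.60 and 10.33 in mtr10 and 7.85 and 8.29 in wild-type (2.40 ± 0.30). ARO80, which encodes the activator of ARO9 and ARO10, measured 10.19 on both mtr10 arrays and 9.23 and 9.21 in wild-type (0.97 ± 0.11). SFA1, an alcohol dehydrogenase of the last step, was higher by 0.70 ± 0.06. ARO10 measured 10.98 and 10.58 in mtr10 and 7.46 and 8.12 in wild-type, a wider gap than that of ARO9. On starvation of wild-type, 3 of these 7 rose in total RNA and 2 fell, against 31.4% and 32.8% of all genes, with PDC6 at 1.39 ± 0.18, ARO80 at 0.82 ± 0.11 and SFA1 at -0.54 ± 0.06.

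GCN4 message itself changed little in total RNA. It rose by 0.27 ± 0.10 in wild-type, 0.34 ± 0.10 in msn5 and 0.37 ± 0.10 in mtr10 total RNA on starvation. The wild-type call ended without any one of its 4 arrays, the msn5 call without starved replicate 2 and the mtr10 call without fed replicate 2. All 3 values were negative in MAS5 signals (-0.19, -0.20 and -0.05), and GCN4 message does not measure Gcn4 protein. The wild-type polysome to non-polysome ratio of GCN4 message was 0.21 ± 0.10 in starved (not called) and -0.46 ± 0.10 in fed cells. That ratio rose by 0.68 ± 0.14 on starvation (limma adjusted p = 0.00108), where 23.3% of all genes rose and 16.4% fell.

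Genes that supply or use the pathway moved in both directions in wild-type total RNA on starvation, where 31.4% of all genes rose and 32.8% fell. Counts of the pentose phosphate and permease lists below lie near those shares. All 5 genes of phosphoribosyl pyrophosphate synthesis, the sugar donor of the TRP4 step, fell, PRS3 by 1.17, PRS4 by 0.83 and PRS5 by 0.38 on the log2 scale. Of 10 pentose phosphate genes, which supply erythrose 4-phosphate, 4 rose and 4 fell, with ZWF1 at 1.22 ± 0.10, RPE1 at -1.01 ± 0.13 and GND1 at -0.64 ± 0.09. Of 9 genes that use chorismate or tryptophan 6 rose and 2 fell, among them BNA2 (1.85 ± 0.17), BNA3 (1.80 ± 0.11) and BNA7 (-0.93 ± 0.11) of tryptophan breakdown through kynurenine. Of 7 genes that charge aromatic tRNAs 0 rose and 3 fell, FRS2 (-0.65 ± 0.07), WRS1 (-0.63 ± 0.10) and FRS1 (-0.42 ± 0.09). Among 6 permeases that carry aromatic amino acids 2 rose and 2 fell, with AGP1 at 1.32 ± 0.18, BAP2 at 0.56 ± 0.12 and TAT1 at -2.47 ± 0.17.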

How the data were processed

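Affymetrix yeast arrays held 1 RNA sample each, 36 in all. The deposited log2 signals were made by the authors with RMA (affy package), per the submitters' processing notes, with no version given. They cover 5684 probe sets and run from 3.42 to 14.61. The authors also deposited MAS5 signals (intensity, array means from 553.0 to 607.0), in columns that name groups but not replicates. The 72 other columns of that matrix, a detection call and p-value per array, were not used, since only 1 measure could be mapped to each group's arrays. By correlation with the RMA arrays, 2 of its columns, 1 named fed and 1 named starved wild-type total RNA, match the RMA array of the other condition (r = 0.956 and 0.949).

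Of the probe sets, 95 are controls, 210 others have no gene and 5379 have 1 gene. Where a gene had several probe sets (39 genes), the probe set brightest on average stood for it. This gave 5338 genes, and 12 symbols were updated. Groups came from the labels. TRP1, MATALPHA1 and MATALPHA2 were not analysed here. Cultures were grown to an OD600 of 0.35, given cycloheximide at 100 µg/ml and run on 10 to 50% sucrose, per the labels' protocols.

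One model with 18 group means (limma 3.58.1 in R 4.3.3, with lmFit, contrasts.fit and two-sided eBayes tests), 18 residual and 3.92 prior degrees of freedom gave 22 comparisons, each adjusted by Benjamini and Hochberg over all genes. The fit was tested on simulated data. The 10 genes, the related lists and the comparisons were chosen with earlier results of these data known. Named beyond the 10 were the other synthesis genes, GCN4, up to 3 genes with the smallest p of each related list, the 5 most alike profiles and the marker and deleted genes. ARO10 was added after seeing the data. Alternatives were MAS5 signals (log2, centred on array medians, with and without the 2 mismatched columns), only the compared groups, a replicate block, trend and robust eBayes, the mean of probe sets and leaving out each array. Chosen after seeing the data were quantile-normalized MAS5 signals and a fit without the 4 fed non-polysome arrays of msn5 and mtr10.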

Additional observations from a re-analysis of the deposited data

Results flagged for a closer look

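In total RNA the starvation change of TRP4 differed between mtr10 and wild-type by a test of that difference, -0.64 ± 0.16 (mtr10 minus wild-type, limma adjusted p = 0.00953), with changes of 0.98 in mtr10 and 1.62 in wild-type. In this test 7.89% of all genes were called downward and 6.41% upward, so a single call among the genes followed is near those shares. The TRP4 call ended without some single mtr10 arrays.

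In wild-type the ratio of polysome to non-polysome signal differed between starved and fed cells for 7 genes by the same kind of test. Over all genes 16.4% were called downward and 23.3% upward. Several of the 7 calls ended without single arrays, those of TRP2 and TRP4 without most of them. The starved minus fed differences were -0.98 for ARO2, -0.72 for TRP3, -0.66 for ARO8, -0.50 for ARO4, -0.41 for TRP2, -0.41 for TRP4 and -0.40 for ARO3. Groups of 2 arrays are too small for a test of single outlying arrays.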

How the results depend on the processing

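Of 220 gene results (10 genes in 22 comparisons) none changed its call with the mean of probe sets, 2 gained a call with trend and robust eBayes, and 1 lost and 1 gained it without the 4 fed non-polysome arrays of msn5 and mtr10. The planned filter on Present calls was not run, since the detection columns were not used. Fits of only the compared groups ended 19 calls and added 2. Leaving out 1 array ended 57 calls among 1000 refitted values, added 1 and reversed 0. MAS5 signals without the mismatched columns reversed 20, and quantile-normalized ones reversed 1, so that most reversals depended on the scaling of the signals. RMA gives every array the same distribution too, so the quantile-normalized values cannot decide which signs hold. Quantile-normalized, ARO4 in the starved wild-type ratio was 0.02. Median-centred MAS5 also moved the split of all genes in that ratio, to 1401 higher and 1811 lower.

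The labels do not say that replicate numbers mark shared cultures, and same-numbered arrays of a strain deviated together in some groups and oppositely in others (r from -0.66 to 0.64). Between kinds of RNA of the same condition r was 0.37 to 0.62 in wild-type and 0.42 to 0.53 in starved msn5, against -0.66 to 0.55 in fed msn5. In fed msn5 polysome RNA had r of -0.66 with total and -0.50 with non-polysome RNA, while non-polysome with total RNA had 0.55. The MAS5 columns a and b of fed msn5 polysome RNA best matched replicates 2 and 1, and whether these numbers are swapped was not tested. Not every pair was over 0.1, so the numbers were not taken as pairs. The model thus treats the 36 arrays as independent, and its p-values leave out variation shared between kinds of RNA. With the replicate block 217 of 220 calls stayed and 3 were gained (ARO4 in mtr10 polysomes 0.23, ARO2 in the starved msn5 ratio -0.27 and ARO7 in the wild-type ratio change -0.25). All-gene calls for msn5 minus wild-type became 90 with the block, against 37 without it.

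Counts of the 10 genes called, leaving out single arrays, were 7 to 8 (wild-type), 8 to 9 (msn5) and 8 to 8 (mtr10) for starvation in total RNA. They were 7 to 9, 7 to 8 and 7 to 8 in polysomes and 9 in wild-type non-polysome RNA. The differences of changes gave 0 (msn5) and 0 to 2 (mtr10). For msn5 against wild-type they were 0 to 1 (fed total), 0 (starved total), 0 and 0 (polysome). For mtr10 they were 3 to 4 (fed total), 4 (fed polysome), 3 to 4 (starved total) and 1 to 3 (starved polysome). Polysome ratios gave 5 to 7 (wild-type fed), 7 to 8 (wild-type starved), 6 to 7 (msn5), 5 to 6 (mtr10) and 4 to 7 for the wild-type ratio change.

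With only the compared groups, msn5 against wild-type gave 0 (fed total) and 0 (starved total) and the starved msn5 ratio 2. Quantile-normalized MAS5 gave 0 for msn5 against wild-type in fed total RNA and 5 for the starved wild-type ratio. Without the mismatched columns MAS5 gave 5 in each strain's total RNA and 5 in mtr10 polysomes on starvation. It gave 0 for msn5 against wild-type in fed and starved total RNA, and for mtr10 against wild-type 2 (starved total) and 1 (starved polysome). With columns as named, starvation counts were 0 (wild-type total), 5 (msn5 total), 3 (mtr10 total) and 3 (mtr10 polysome), and the mtr10 difference of changes gave 0. Strain differences gave 0 (msn5 fed total), 1 (mtr10 fed total), 2 (mtr10 fed polysome) and 0 (mtr10 starved polysome), and starved ratios 3 (wild-type) and 3 (mtr10).

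Reversed values in MAS5 signals were the same with and without the mismatched columns outside wild-type total RNA. In msn5 total RNA ARO4 was -0.13, TRP5 -0.05 and GCN4 -0.20, and in mtr10 total RNA GCN4 was -0.05. In polysomes ARO8, TRP2 and TRP5 were -0.41, -0.20 and -0.26 in wild-type, ARO8 and TRP5 -0.36 and -0.26 in msn5, and ARO3, ARO8, TRP2 and TRP5 -0.06, -0.25, -0.04 and -0.17 in mtr10. In the starved ratio ARO3, ARO8 and TRP5 were -0.43, -0.30 and -0.23 in wild-type, and -0.44, -0.35 and -0.34 in msn5, and ARO3 and TRP5 -0.40 and -0.08 in mtr10. Without the mismatched columns, wild-type total RNA gave -0.08 for ARO8 and -0.19 for GCN4. With the columns as named, where each group mean mixes both conditions, it gave ARO7 0.08, ARO8 -0.04, ARO9 -0.12, SFA1 0.04, PDC6 -0.55, ARO80 -0.07, AGP1 -0.03, FRS2 0.00, WRS1 0.14, FRS1 0.13, ZWF1 -0.11, RPE1 0.00, PRS3 0.21, PRS4 0.16, PRS5 0.05, BNA3 -0.14 and BNA2 -0.13. It also gave 0.54 for the TRP4 mtr10 difference of changes, 0.06 for ARO7 in msn5 against fed wild-type and 0.14 for TRP3 in mtr10 against starved wild-type.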
